A study of Mus musculus with 6 samples.

Results

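The genes described are 10 muscle chaperones and small heat shock proteins of the mouse: Hspb1, Hspb2, Hspb3, Hspb6, Hspb7, Hspb8, Cryab, Unc45a, Unc45b and Smyd1. They were chosen by name for what they do, with earlier results of these data known, and are 10 of the 55286 gene symbols in the count table. All 10 are among the 17400 genes that passed the filter on low counts. RNA sequencing compared cells made by direct reprogramming (transdifferentiated cells), muscle, and mouse embryonic fibroblasts (MEF), with 2 libraries in each group. The sample descriptions call the libraries SiMuscle (transdifferentiated cells), SEndomuscle (muscle) and STauMEF (MEF), and the labels do not explain "Si", "Endo" or "Tau". They state no genotype, strain, age or treatment, and they do not name the reprogramming factor, the time after conversion or the age and source of the muscle. They do not say whether the 2 libraries of a group are separate cultures or animals either, so a p-value here reflects the spread between libraries, which may be technical.

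Small heat shock proteins share an alpha-crystallin domain and bind unfolding proteins without using ATP, holding them until ATP-driven chaperones of the HSP70 family refold them or pass them to degradation. Striated muscle is rich in them, and several sit on the Z-disc and on desmin filaments. Myosin heads need a chaperone of their own. UNC45 proteins bind myosin and HSP90 together, with UNC45B serving striated muscle and UNC45A most other cells, and SMYD1 is a lysine methyltransferase of heart and skeletal muscle that is required for thick filament assembly.

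Promoter sequence was in the RefSeq table (build GRCm38.p6) for 8 of the 10 genes. Hspb2 and Cryab have no entry there. The 250 bases before the annotated start are shown, 5′ to 3′, for Unc45b, Hspb3 and Smyd1, whose transcripts were close to 0 in MEF, and for Hspb1, the member best known for induction by heat. Capitals mark CANNTG, the E-box core that MYOD1 and MYOG bind.
Unc45b (chr11:82911003-82911252, plus strand): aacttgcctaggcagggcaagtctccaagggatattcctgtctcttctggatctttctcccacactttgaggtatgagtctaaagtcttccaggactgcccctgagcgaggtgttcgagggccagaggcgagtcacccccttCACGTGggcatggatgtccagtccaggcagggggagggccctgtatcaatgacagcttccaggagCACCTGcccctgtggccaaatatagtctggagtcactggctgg
Hspb3 (chr13:113663677-113663926, minus strand): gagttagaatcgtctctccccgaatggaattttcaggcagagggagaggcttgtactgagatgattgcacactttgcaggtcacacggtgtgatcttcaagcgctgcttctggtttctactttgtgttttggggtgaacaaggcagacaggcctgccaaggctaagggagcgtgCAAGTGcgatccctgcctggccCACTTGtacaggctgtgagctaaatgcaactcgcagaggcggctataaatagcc
Smyd1 (chr6:71262282-71262531, minus strand): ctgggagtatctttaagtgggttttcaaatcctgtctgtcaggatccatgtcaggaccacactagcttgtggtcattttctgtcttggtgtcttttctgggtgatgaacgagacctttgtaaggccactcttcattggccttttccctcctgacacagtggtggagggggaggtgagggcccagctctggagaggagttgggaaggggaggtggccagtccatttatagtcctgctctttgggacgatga
Hspb1 (chr5:135887669-135887918, plus strand): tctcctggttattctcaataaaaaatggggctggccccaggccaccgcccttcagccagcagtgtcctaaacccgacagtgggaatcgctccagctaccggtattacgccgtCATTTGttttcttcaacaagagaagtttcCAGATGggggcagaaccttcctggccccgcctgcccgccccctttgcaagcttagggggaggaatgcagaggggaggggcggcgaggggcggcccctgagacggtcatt
The Unc45b window holds CACGTG and CACCTG, whose first bases lie 108 and 43 bases upstream of the start. The Hspb3 window holds CAAGTG and CACTTG at 76 and 54 bases, a MEF2 site, the motif of the MEF2 transcription factors, 12 bases upstream, and GAANNTTC, a pair of inverted heat shock units, at 224 bases. The Smyd1 window holds no CANNTG. In the GENCODE M21 gene models Smyd1 and Unc45b begin further upstream than the RefSeq starts used here. Their windows therefore lie inside the GENCODE genes, and the other annotated starts were not searched. In the Hspb1 window the E-boxes are at 138 and 109 bases, and GAANNTTC occurs at 117 and 97 bases. Both strands were searched, and none of the matches overlapped another. A match is common for the first motif: 66.2% of 32851 promoter windows of the same length hold at least 1 CANNTG and 31.8% hold 2 or more. GAANNTTC occurs in 6.7% of these windows and 2 or more times in 0.2%, and the MEF2 site in 2.9%. CAGCTG, a form of CANNTG that was also searched, occurs in 13.0% of them and in none of the windows shown. These matches describe letters in the sequence and were not tested for binding.

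Libraries held 16817033 and 21072555 counted reads in transdifferentiated cells, 24584951 and 16952000 in muscle, and 18997705 and 18978216 in MEF. A count of 0 allows up to 3 counts, which is 0.128 to 0.183 CPM (counts relative to library size) in a library. All 12 skeletal muscle markers rose against MEF, in transdifferentiated cells and in muscle alike, with summed levels of 32150 to 46271 CPM in transdifferentiated cells, 47169 to 49878 in muscle and 247 to 385 in MEF. Fibroblast markers summed to 9321 to 13467 CPM in transdifferentiated cells, 5904 to 11190 in muscle and 15916 to 25787 in MEF. Gene by gene the fibroblast list was mixed in transdifferentiated cells. Of its 10 markers, 4 fell against MEF there, 1 rose and 5 did not pass the test (edgeR). Muscle had 8 that fell against MEF and 0 that rose. All 8 genes that mark macrophages were higher in transdifferentiated cells than in muscle and than in MEF (714 to 842 CPM summed, against 1.95 to 4.61 in muscle and 77.1 to 77.9 in MEF), and Adgre1 and Tyrobp were at 0 in both muscle libraries. Smooth muscle markers summed to 2397 to 3297 CPM in transdifferentiated cells, 2840 to 4391 in muscle and 10229 to 13863 in MEF, cardiac markers to 32.4 to 38.1, 26.9 to 31.7 and 13.4 to 17.8 CPM in the same order, and endothelial markers to 5.12 to 9.78, 0.122 to 1.83 and 19.3 to 20.6 CPM. Of 5 cardiac markers tested, Myh6 was higher in muscle than in MEF and 3 were lower, so the cardiac sum in muscle is mostly Myh6 (31.6 and 25.6 CPM). Of the 7 cardiac markers, Myl7, Nkx2-5 and Nppa were at 0 in both muscle libraries. Of the 5 tested, 3 were higher in transdifferentiated cells than in muscle and 0 lower (edgeR). Against MEF, 1 was higher and 1 lower in transdifferentiated cells. Of 5 endothelial markers tested, 2 were higher in transdifferentiated cells than in muscle, against 7.58% of all tested genes. In transdifferentiated cells 1 was lower than in MEF, and in muscle 4 were. Of the 6 listed, only Tie1 was at 0 in transdifferentiated cells, and it was also at 0 in muscle. The part of these cell types in the results below was not tested. In bulk RNA, fewer cells of a type and less RNA per cell cannot be told apart.

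Transdifferentiated cells held far more transcript of most of these chaperones than MEF did. Of the 10 genes, 8 rose, Unc45a fell and Hspb6 did not pass the test (edgeR quasi-likelihood test, adjusted p under 0.05 over all 17400 genes). Among all genes tested, 15.9% rose and 11.3% fell. The median log2 fold change was 3.06 over the 10 genes and 0.07 over all tested genes. The libraries of transdifferentiated cells and MEF did not overlap for any of the 10 genes, but this held for 60.6% of all tested genes as well. The largest changes belonged to Smyd1, Unc45b and Hspb3, which ranked 94, 113 and 254 by log2 fold change among the 17400 genes. The other genes that rose ranked from 680 for Hspb2 to 2698 for Hspb1.

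**Figure D1:**
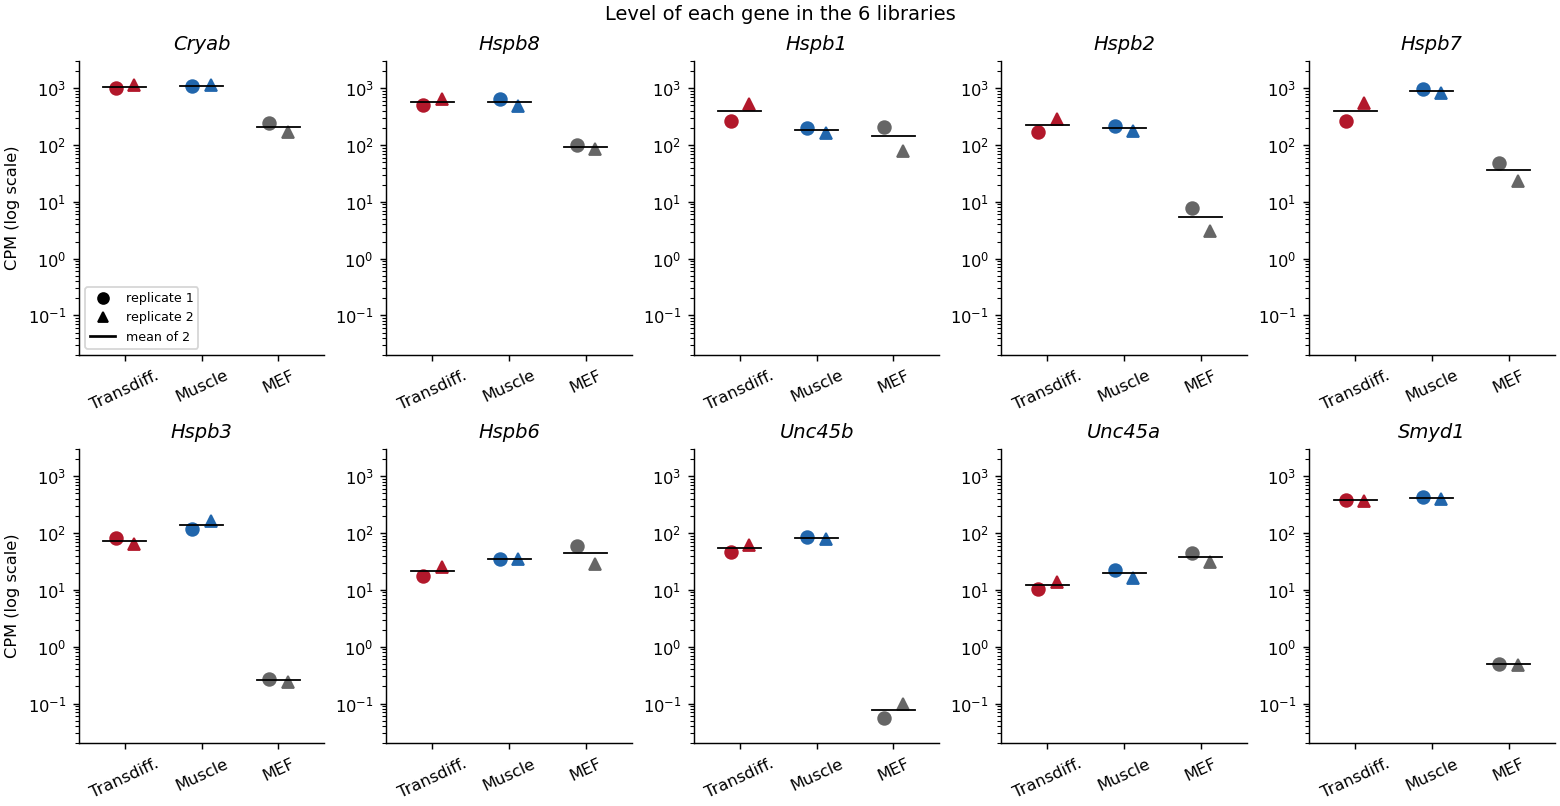
Level of each of the 10 genes in CPM (log scale) in every library, with the group mean as a bar; circles are replicate 1 and triangles replicate 2. Unc45b, Hspb3 and Smyd1 lie below 1 CPM in both MEF libraries and at 46.7 CPM or more in every library of transdifferentiated cells and muscle, while Hspb6 and Unc45a have their highest group mean in MEF.

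Cryab (chromosome 9, 50751325 to 50756636, plus strand) encodes alpha-B-crystallin, which guards desmin and titin in striated muscle. It had 991 and 1133 CPM in transdifferentiated cells, 1075 and 1122 CPM in muscle, and 239 and 171 CPM in MEF. Transdifferentiated cells and muscle overlapped, and both stood well above MEF. Cryab rose 5.18-fold in transdifferentiated cells against MEF (log2 fold change 2.37 ± 0.26, SE, edgeR adjusted p = 0.000256).

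Hspb8 (chromosome 5, 116408491 to 116422864, minus strand) acts with the co-chaperone BAG3 in the disposal of damaged filamin at the Z-disc. Its level was 507 and 641 CPM in transdifferentiated cells, 634 and 488 CPM in muscle, and 102 and 84.5 CPM in MEF. The first 2 groups overlapped and MEF stood apart below them. The rise against MEF was 6.17-fold in transdifferentiated cells (2.63 ± 0.27, edgeR adjusted p = 0.000181).

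Hspb2 (chromosome 9, 50751078 to 50752354, minus strand), also called MKBP, binds the myotonic dystrophy kinase DMPK and forms complexes with HSPB3. It was measured at 166 and 284 CPM in transdifferentiated cells, 219 and 179 CPM in muscle, and 7.71 and 3.01 CPM in MEF. Transdifferentiated cells spanned the muscle values, and MEF was far below. Hspb2 rose 42.2-fold against MEF (5.40 ± 0.51, edgeR adjusted p = 0.000104). Without MEF replicate 1 the log2 fold change was 6.22.

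Hspb3 (chromosome 13, 113662896 to 113663676, minus strand) is the partner of HSPB2 and is largely restricted to muscle and nerve. It had 82.0 and 64.8 CPM in transdifferentiated cells and 119.5 and 161 CPM in muscle. In MEF it was near the limit of detection at 0.275 and 0.243 CPM, 5 counts in each library. Counting error at so few counts was not assessed separately, so the ± of Hspb3 against MEF may understate the error. The 3 groups did not overlap, with muscle highest. In transdifferentiated cells Hspb3 rose 277-fold over MEF (8.12 ± 0.40, edgeR adjusted p = 3.3e-06).

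Hspb7 (chromosome 4, 141420779 to 141425311, plus strand), the cardiovascular small heat shock protein, binds filamin C and limits protein aggregation. It had 260.0 and 547 CPM in transdifferentiated cells, 968 and 817 CPM in muscle, and 48.1 and 23.7 CPM in MEF. The groups did not overlap, and transdifferentiated cells lay between MEF and muscle. The rise against MEF was 11.3-fold in transdifferentiated cells (3.49 ± 0.46, edgeR adjusted p = 0.000714). Its log2 value was 2.83 without transdifferentiated replicate 2 and 4.09 without MEF replicate 1.

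Hspb1 (chromosome 5, 135887919 to 135889563, plus strand) encodes HSP25, the mouse counterpart of HSP27, which binds actin and filamin C and is made by many cell types under stress. Its values were 269 and 536 CPM in transdifferentiated cells, 198 and 165 CPM in muscle, and 207 and 79.3 CPM in MEF. Both libraries of transdifferentiated cells were above all others, while muscle lay within the span of MEF. The difference of transdifferentiated cells from MEF was 2.81-fold (1.49 ± 0.47, edgeR adjusted p = 0.0448). The Hspb1 call was lost without transdifferentiated replicate 2 (0.88, adjusted p = 0.189), without MEF replicate 2 (0.95, 0.103), without muscle replicate 1 (1.49, 0.0635) and without muscle replicate 2 (1.49, 0.0629). With only the 4 libraries compared the edgeR adjusted p was 0.0751, and with DESeq2 size factors in edgeR it was 0.0505. Without MEF replicate 1 the log2 fold change was 2.34 (edgeR adjusted p = 0.000954). The processed pseudogene Hsp25-ps1 had 18.8 and 47.4 CPM in transdifferentiated cells, 14.1 and 12.6 CPM in muscle, and a mean of 11.6 ± 6.25 CPM in MEF (SD, n = 2), so the Hspb1 level is uncertain where reads were split between the copies.

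Hspb6 (chromosome 7, 30552178 to 30555443, plus strand) encodes HSP20, which is abundant in heart, skeletal and smooth muscle. It had 17.7 and 25.5 CPM in transdifferentiated cells, 35.1 and 35.7 CPM in muscle, and 59.2 and 28.3 CPM in MEF. Both libraries of transdifferentiated cells were below all others, and muscle fell between the 2 MEF libraries. Its log2 fold change in transdifferentiated cells against MEF was -1.02 ± 0.37 and did not pass the test (edgeR adjusted p = 0.0756), though it passed with DESeq2 (adjusted p = 0.0347) and without MEF replicate 2 (log2 fold change -1.46, edgeR adjusted p = 0.00675). It was -0.40 without MEF replicate 1 and -0.78 without transdifferentiated replicate 1 (edgeR adjusted p = 0.522 and 0.261). Hspb6 exons overlap the opposite-strand gene Proser3 by 122 bases, so it is uncertain where reads were shared. Of 7 smooth muscle markers 6 fell in transdifferentiated cells against MEF, and their part in the Hspb6 values was not tested.

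Per length, the 7 small heat shock proteins together reached 1597 and 2247 RPKM (reads relative to gene length and library size) in transdifferentiated cells, 2025 and 1901 RPKM in muscle, and 467 and 261 RPKM in MEF. They took 0.242% and 0.317% of all counts in transdifferentiated cells, 0.310% and 0.288% in muscle, and 0.0634% and 0.0423% in MEF. On the RPKM scale Cryab was the largest share in every library except MEF replicate 1, where Hspb1 was larger. Cryab took 38.0% ± 5.58 of the sum in transdifferentiated cells, 37.9% ± 2.85 in muscle and 39.5% ± 6.90 in MEF (SD, n = 2 each). The share of Hspb1 was 19.7% ± 4.83 in transdifferentiated cells, 8.95% ± 0.754 in muscle and 36.2% ± 9.51 in MEF. Hspb2 took 13.8% ± 1.89 in transdifferentiated cells, 12.1% ± 1.20 in muscle and 1.68% ± 0.419 in MEF. The mean share of Cryab was thus similar in the 3 groups, while that of Hspb1 was highest and that of Hspb2 lowest in MEF. Differences in shares were not tested. The share of Hspb7 was 7.33% ± 2.05 in transdifferentiated cells, 16.4% ± 1.23 in muscle and 3.50% ± 0.310 in MEF. Hspb3 took 5.14% ± 2.04, 9.22% ± 2.34 and 0.0974% ± 0.0310 in the same order of groups. Hspb8 took similar shares in the 3 groups, at 15.5% ± 1.15 in transdifferentiated cells, 14.6% ± 2.05 in muscle and 13.9% ± 3.87 in MEF.

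**Figure D2:**
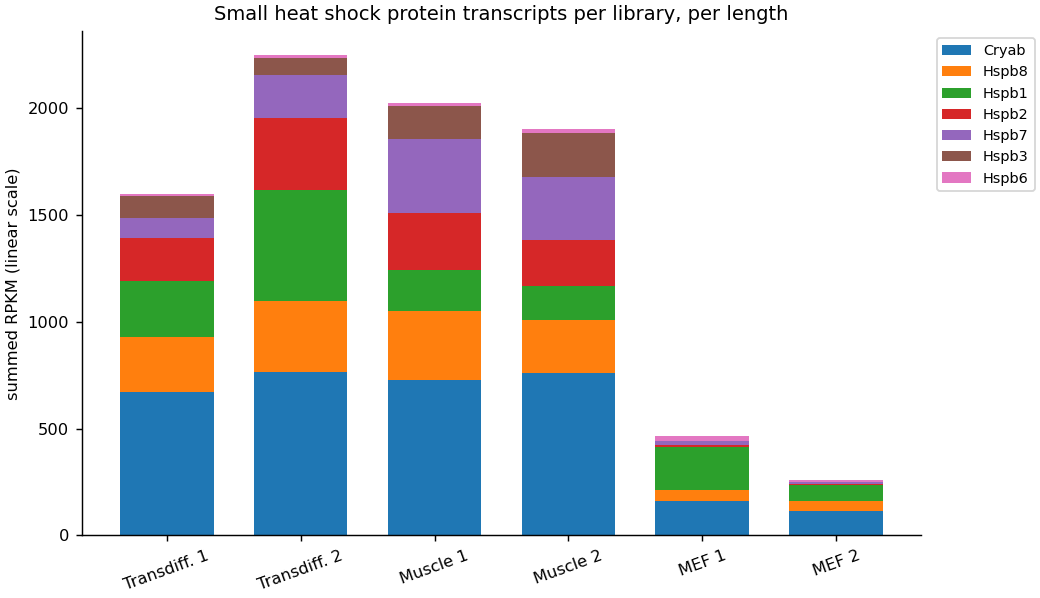
Summed level of the 7 small heat shock protein genes in each library, in RPKM on a linear axis, with each colour a gene. The sum is 1597 and 2247 in transdifferentiated cells and 2025 and 1901 in muscle, against 467 and 261 in MEF, where Cryab and Hspb1 make up most of the bar.

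Among all 53362 symbols with an annotated length, ranked by mean RPKM, Cryab stood 54th in transdifferentiated cells, 53rd in muscle and 372nd in MEF. Hspb1 ranked 107 in transdifferentiated cells, 302 in muscle and 370 in MEF. Hspb8 ranked 142, 170 and 1144 in the same order of groups. Hspb3 ranked 527, 296 and 15080, and Smyd1 597, 568 and 18128. Unc45b ranked 3943, 2856 and 22528. At the other end of the order, Unc45a ranked 9972 in transdifferentiated cells, 8000 in muscle and 5377 in MEF.

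Unc45b (chromosome 11, 82910550 to 82943403, plus strand), the myosin chaperone of striated muscle, had 46.7 and 60.6 CPM in transdifferentiated cells and 84.2 and 77.4 CPM in muscle. In MEF it had 0.0551 and 0.0971 CPM, from 1 and 2 counts. Transdifferentiated cells and muscle did not overlap each other and were far above MEF. Unc45b rose in transdifferentiated cells against MEF (fitted log2 fold change 9.32 ± 0.45, edgeR adjusted p = 2.7e-06). The ratio of the pooled CPM levels was 699 with an exact Poisson interval at 95 percent of 239 to 3395, which covers counting error only. As a fold, the edgeR 95% interval was 317 to 1297, narrower than counting error alone, so the ± understates the error.

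Unc45a (chromosome 7, 80325292 to 80341005, minus strand), the general member of the pair, went the other way. It had 10.6 and 13.8 CPM in transdifferentiated cells, 22.6 and 16.3 CPM in muscle, and 45.1 and 31.2 CPM in MEF. The 3 groups did not overlap, with transdifferentiated cells lowest. Unc45a fell to 0.319 of its MEF level in transdifferentiated cells (-1.65 ± 0.32 as log2, edgeR adjusted p = 0.00593).

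The 2 paralogs therefore changed places as the more abundant transcript. The ratio of Unc45b to Unc45a per length was 4.97 and 4.96 in transdifferentiated cells, 4.18 and 5.35 in muscle, and 0.00137 and 0.00350 in MEF. Unc45b exceeded Unc45a in every library of the first 2 groups and was the minor form in both MEF libraries. An exact two-sided permutation test gave p = 0.333 for transdifferentiated cells against MEF, the smallest value that 2 against 2 libraries allow, and p = 1 for transdifferentiated cells against muscle. The MEF ratio rests on 3 counts of Unc45b.

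Smyd1 (chromosome 6, 71213940 to 71322233, minus strand) had 382 and 372 CPM in transdifferentiated cells and 435 and 402 CPM in muscle. MEF had 0.496 and 0.486 CPM, from 9 and 10 counts. The 3 groups did not overlap, and muscle was highest. In transdifferentiated cells it rose 759-fold over MEF (9.57 ± 0.34, edgeR adjusted p = 1.4e-06).

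Cryab and Hspb2 are neighbours read in opposite directions. In the GENCODE M21 gene models on mm10 their exons share 252 bases, 30.2% of the Hspb2 exons and 17.0% of the Cryab exons. Of the 6 annotated Cryab transcripts, 2 begin inside Hspb2, and the other 4 begin 614 to 2102 bases from the start of the longest Hspb2 transcript. The ratio of Hspb2 to Cryab per length was 0.298 and 0.445 in transdifferentiated cells, 0.362 and 0.282 in muscle, and 0.0572 and 0.0312 in MEF. Both genes rose, and the geometric mean of the ratio in transdifferentiated cells was 8.61 times that of MEF. Transdifferentiated cells and MEF did not overlap in this ratio (exact two-sided permutation p = 0.333, the smallest possible), while transdifferentiated cells and muscle did. No source used here gives the strand setting of the counting, so reads from the shared bases could count for either gene. Unc45b also overlaps the antisense transcripts Unc45bos, with 0 to 8 counts per library, and Slfn5os, with 0 to 6 counts.

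**Figure D3:**
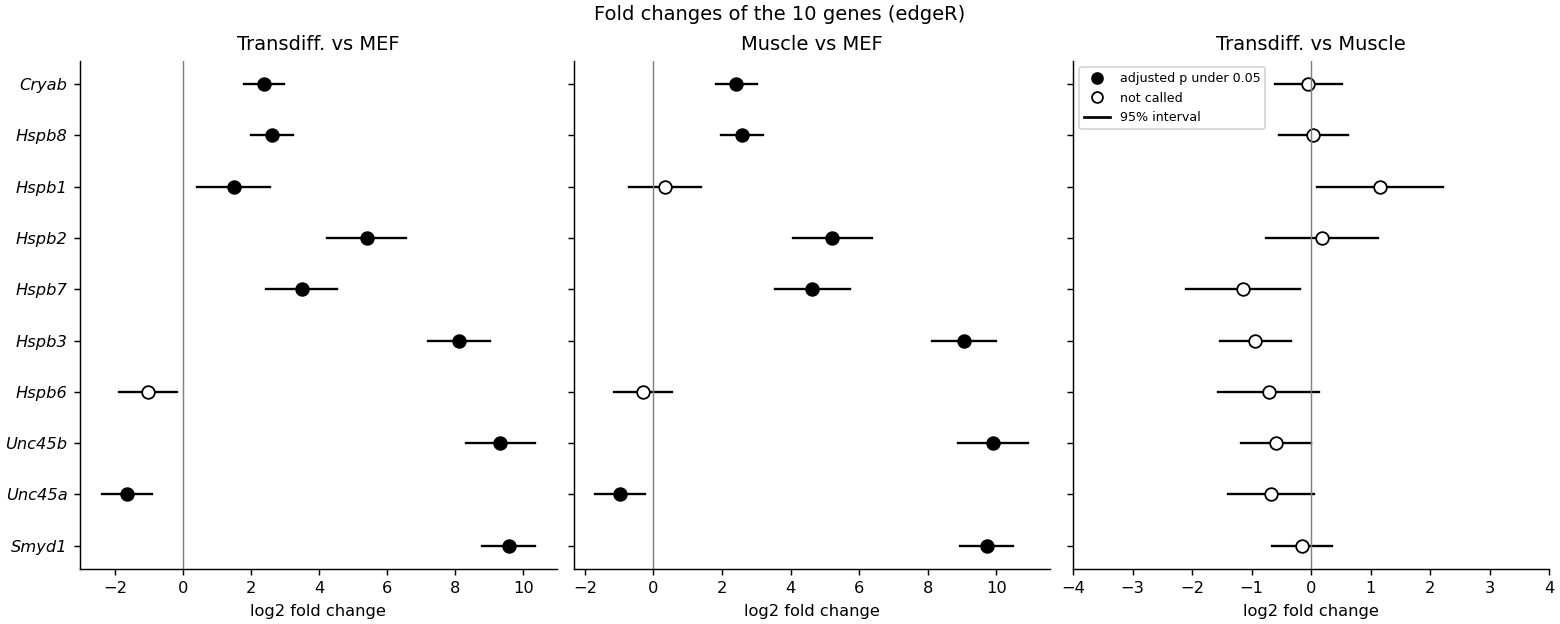
Fitted log2 fold change of each gene in the 3 comparisons with its 95% interval. Filled points passed an edgeR adjusted p under 0.05. Against MEF the intervals of Unc45b understate the error, as it had 3 counts there, and those of Hspb3 were not checked against counting error. In transdifferentiated cells against MEF 9 of 10 points are filled, in muscle against MEF 8 of 10, and in transdifferentiated cells against muscle none, where the intervals of Hspb7, Hspb3 and Unc45b lie below 0 and that of Hspb1 above it.

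Muscle too held more of most of these chaperones than MEF. Of the 10 genes 7 rose and Unc45a fell, against 17.3% rising and 18.3% falling among the tested genes as a whole. The median log2 fold change was 3.61 over the 10 genes and 0 over all tested genes. The libraries of muscle and MEF did not overlap for 8 of the 10 genes and for 68.8% of all tested genes. On the log2 scale Smyd1 rose by 9.72 ± 0.34, Unc45b by 9.91 ± 0.45 and Hspb3 by 9.05 ± 0.41 (edgeR adjusted p = 9.4e-07, 1.4e-06 and 1.5e-06). Unc45b had 3 counts in the 2 MEF libraries together, and its ratio of pooled CPM was 1051 (exact Poisson interval 359 to 5099.9, counting error only). Its edgeR 95% interval as a fold, 475 to 1962, was narrower, so the ± of Unc45b understates the error. Hspb2 rose by 5.22 ± 0.50 and Hspb7 by 4.64 ± 0.48 (edgeR adjusted p = 8.9e-05 and 0.000136), and without MEF replicate 1 these were 6.04 and 5.23. Hspb8 and Cryab rose by 2.59 ± 0.27 and 2.42 ± 0.26 (edgeR adjusted p = 0.000138 and 0.000160). Hspb1 (0.34 ± 0.46, edgeR adjusted p = 0.608) and Hspb6 (-0.31 ± 0.37, 0.563) did not pass the test. For these 2 genes the libraries of muscle and MEF overlapped, and Hspb1 passed without MEF replicate 1 (1.19, edgeR adjusted p = 0.0388). Unc45a fell by 0.97 ± 0.32 (edgeR adjusted p = 0.0419), a call lost without MEF replicate 1 (adjusted p = 0.220), without muscle replicate 1 (0.0807) and without muscle replicate 2 (0.273). Both comparisons use the same MEF libraries.

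An authors' deposited table, with no contrast named in its header, lists 2806 genes, and its sign was opposite to that of muscle against MEF in all 2645 of its genes tested here. The authors' deposited table lists 7 of the 10 genes, leaving out Hspb1, Hspb6 and Unc45a. In the authors' deposited table the log2 fold change was -9.50 for Smyd1, -9.45 for Unc45b and -8.85 for Hspb3, and -2.02 for Cryab was the smallest in size among the 7. No log2 fold change in the authors' deposited table is smaller in size than 2, so Cryab lies near the lower limit of what is listed, and nothing further was read from the absence of the other 3 genes.

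Between transdifferentiated cells and muscle, none of the 10 genes passed the test, while among the tested genes as a whole transdifferentiated cells had 7.58% higher and 2.46% lower. At an unadjusted p under 0.05, 1 gene was higher (Hspb1) and 3 were lower (Hspb3, Hspb7 and Unc45b), and DESeq2 called 0 higher and 2 lower (Hspb3, adjusted p = 0.0285, and Hspb7, 0.0482). The median log2 fold change was -0.37 over the 10 genes and 0.03 over all tested genes. The libraries of the 2 groups did not overlap for 7 of the 10 genes, against 48.9% of all tested genes, and overlapped for Cryab, Hspb2 and Hspb8.

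The intervals show how large a difference the data allow. For Cryab and Hspb8 the log2 difference was -0.049 (95% interval -0.61 to 0.52) and 0.032 (-0.55 to 0.61), and for Smyd1 -0.15 (-0.65 to 0.35), with edgeR adjusted p of 0.959, 0.976 and 0.811. For Hspb2 it was 0.18 (-0.76 to 1.12, edgeR adjusted p = 0.894). These intervals include no difference, and changes of up to about the size of their bounds cannot be told from none at this depth and replication. Hspb7 differed by -1.15 (-2.10 to -0.19, edgeR adjusted p = 0.143) and Hspb3 by -0.94 (-1.54 to -0.33, edgeR adjusted p = 0.061). Unc45b differed by -0.59 (-1.18 to -0.0027, edgeR adjusted p = 0.230), Unc45a by -0.68 (-1.41 to 0.05, 0.271) and Hspb6 by -0.71 (-1.56 to 0.13, 0.330). Hspb1 alone had an interval above 0, at 1.15 (0.09 to 2.21, edgeR adjusted p = 0.189). Without MEF replicate 1, Hspb1, Hspb3 and Hspb7 passed the test (edgeR adjusted p = 0.0256, 0.0437 and 0.0271), and they did so without MEF replicate 2 (0.0278, 0.0458 and 0.0299). Hspb7 also passed without transdifferentiated replicate 2, at -1.79 (edgeR adjusted p = 0.0252), and was -0.70 without transdifferentiated replicate 1 (0.446). Hspb1 was 0.56 without transdifferentiated replicate 2 (edgeR adjusted p = 0.565), and Hspb3 was -0.71 without muscle replicate 2 (0.440). Transdifferentiated cells exceeded muscle in 7 of the 10 fibroblast markers. Of the 12 skeletal muscle markers, 1 was higher and 2 were lower than in muscle (edgeR), against 7.58% and 2.46% of all tested genes. The part of either marker set in these differences was not tested.

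Replicates of a group differed with the GC content of the transcript, which bears on the GC-rich members. The tested genes were divided into 5 bins of about equal size by GC content. The median log2 ratio of replicate 1 to replicate 2 in the lowest and the highest bin was 0.53 and -0.61 in transdifferentiated cells, -0.29 and 0.32 in muscle, and -0.54 and 0.65 in MEF. Hspb1, Hspb2, Hspb7 and Unc45a, with GC contents of 61.7%, 59.6%, 57.5% and 58.5%, are in the highest bin, which starts at 55.36%. The log2 ratio of the replicates was -0.77 for Hspb2 and -1.07 for Hspb7 in transdifferentiated cells, and 1.36 and 1.02 for them in MEF. For Hspb1 it was -0.997 in transdifferentiated cells, 0.26 in muscle and 1.38 in MEF. Smyd1, at 49.9% GC, had ratios of 0.04 in transdifferentiated cells, 0.11 in muscle and 0.03 in MEF. With an offset for GC content in the fit, an alternative chosen after seeing the data, Hspb1 rose by 1.71 and Hspb6 fell by 0.91 against MEF in transdifferentiated cells (edgeR adjusted p = 0.000118 and 0.0107). Hspb1 then passed in muscle against MEF as well, at 0.64 (edgeR adjusted p = 0.0272). Under that offset 5 of the 10 genes differed between transdifferentiated cells and muscle: Hspb1 was higher (edgeR adjusted p = 0.00543), and Hspb3, Hspb7, Unc45a and Unc45b were lower (0.0108, 0.00507, 0.0411 and 0.0371).

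**Figure D4:**
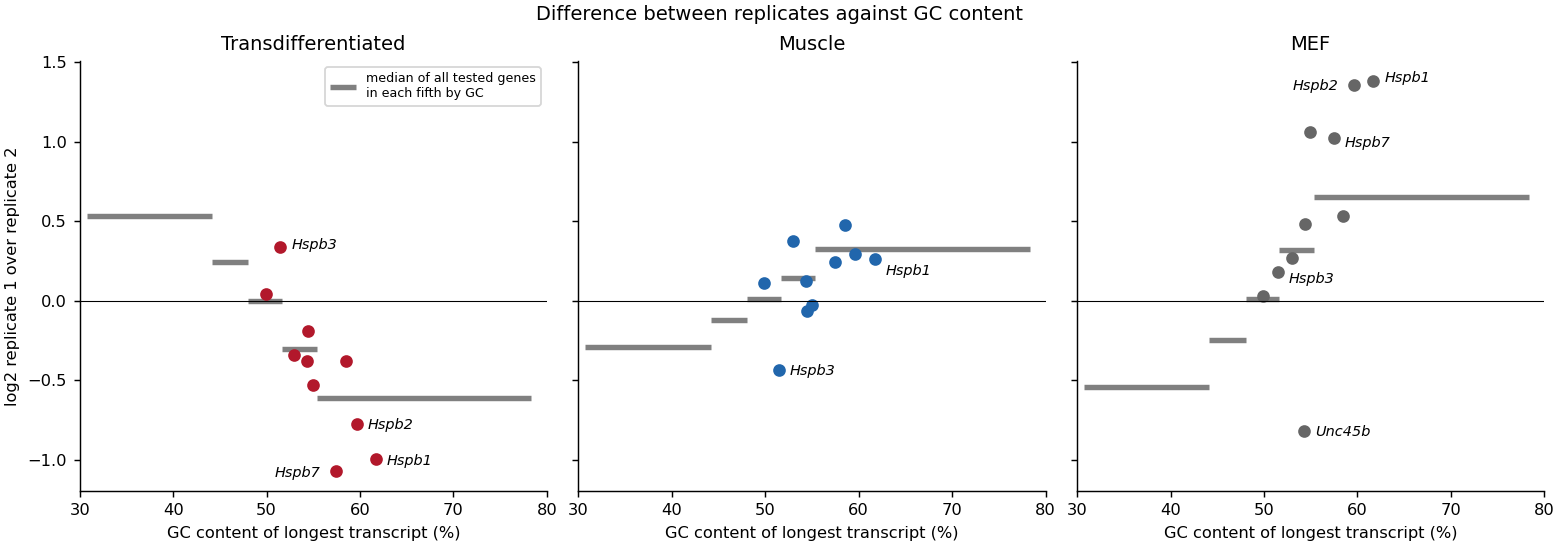
Log2 ratio of replicate 1 to replicate 2 for the 10 genes (points) against the GC content of the longest transcript in percent, by group; grey bars are medians of all tested genes in each of 5 bins by GC content. The trend falls with GC in transdifferentiated cells and climbs in muscle and MEF, and Hspb7 lies at -1.07 in transdifferentiated cells and at 1.02 in MEF.

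For each member the gene with the most similar profile was the one at the smallest Euclidean distance between centred log2 CPM values over the 6 libraries, among 17390 other genes. Smyd1 was nearest to Tnnt3, the fast skeletal troponin T (distance 0.327), and Unc45b to Cacng6, a calcium channel gamma subunit of skeletal muscle (0.379). Hspb3 was nearest to the predicted gene Gm14635 (0.278), Hspb2 to Dbh (0.582), Hspb7 to Pclo (0.193), Hspb8 to Rhobtb2 (0.220) and Cryab to Dhdh (0.203). Hspb1 was nearest to its own pseudogene Hsp25-ps1 (0.351). Hspb6 was nearest to Tnfrsf12a (0.240) and Unc45a to Mea1 (0.0840).

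Small heat shock proteins hand their clients to ATP-driven chaperones. In transdifferentiated cells against MEF, 27.3% of all tested genes passed the test in either direction. Of 16 genes of HSP90 and its co-chaperones none passed the test in transdifferentiated cells against MEF (edgeR; 2 higher and 1 lower at an unadjusted p under 0.05, 0 with DESeq2), with a median log2 fold change of 0.06. Hsp90ab1, the constitutive HSP90, had 1794 and 2087 CPM in transdifferentiated cells, 1832 and 1797 CPM in muscle, and 1433 CPM in each MEF library. Hsp90aa1, the inducible form, had 98.0 and 57.5 CPM in transdifferentiated cells, 57.7 and 72.7 CPM in muscle, and 79.8 and 131 CPM in MEF. Neither passed the test against MEF (edgeR adjusted p = 0.185 and 0.391).

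In the list of 27 cytosolic HSP70, HSP110 and co-chaperone genes, transdifferentiated cells had 6 that rose against MEF and 3 that fell (median 0.18), 9 calls in all. Dnaja4, a J-domain co-chaperone, rose by 1.65 ± 0.30 and Hspa1l by 2.14 ± 0.50 (edgeR adjusted p = 0.00414 and 0.0132), and Hspa1b and Dnajb1, both heat-induced, fell by 1.90 ± 0.39 and 0.89 ± 0.26 (0.00672 and 0.0341). Hspa1b has a near-identical copy, Hspa1a (3.82 and 1.65 CPM in transdifferentiated cells, 2.35 and 1.46 in muscle, 3.14 and 3.11 in MEF), so their separate levels are uncertain. The constitutive Hspa8 had 564 and 428 CPM in transdifferentiated cells, 478 and 643 CPM in muscle, and 407 and 564 CPM in MEF, and Dnajb6, mutated in a limb-girdle muscular dystrophy, kept to 18.0 to 22.8 CPM in all libraries. Neither Hspa8 (edgeR adjusted p = 0.947) nor Dnajb6 (0.878) passed the test against MEF in transdifferentiated cells.

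Of 21 heat shock factors and heat-induced genes, 2 were higher and 4 lower in transdifferentiated cells (median -0.20 against MEF). Hsf1, the main heat shock factor, had 32.3 and 65.3 CPM in transdifferentiated cells, 74.2 and 59.2 CPM in muscle, and 88.1 and 44.7 CPM in MEF, with overlap among the groups. Hsf2 rose by 1.70 ± 0.36 and Hspa4l by 1.42 ± 0.37 (edgeR adjusted p = 0.00792 and 0.0217). In the chaperone-assisted autophagy list, where HSPB8 works, 2 of 11 genes rose and 1 fell. For the heat-induced and the autophagy list alike, the calls were near the share of all tested genes, 27.3% in either direction. Synpo2, which links the complex to autophagosome formation, had 448 and 596 CPM in transdifferentiated cells, 357 and 370 CPM in muscle, and 16.1 and 13.3 CPM in MEF (5.15 ± 0.30, edgeR adjusted p = 5.7e-06). Flnc, the filamin that is the client, rose by 1.83 ± 0.40 (0.00946) and Ube4b fell by 0.81 ± 0.25 (0.0419). Bag3 itself had 95.1 and 172 CPM in transdifferentiated cells, 122 and 104 CPM in muscle, and 225 and 112 CPM in MEF, and Stub1, the ubiquitin ligase, 32.6 and 33.9, 38.7 and 30.5, and 38.3 and 43.0 CPM in the same order. Neither Bag3 (edgeR adjusted p = 0.570) nor Stub1 (0.446) passed the test against MEF in transdifferentiated cells.

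Of 14 tested genes of the TRiC chaperonin and prefoldin, which fold actin and tubulin, none passed the test (edgeR; 2 higher and 0 lower at an unadjusted p under 0.05, 0 with DESeq2; median 0.32). Of 16 endoplasmic reticulum chaperones, 3 fell and none rose in transdifferentiated cells against MEF (1 higher at an unadjusted p under 0.05 and 1 with DESeq2), among them Pdia3 and Calr, which fell by 1.11 ± 0.23 and 1.08 ± 0.24 (edgeR adjusted p = 0.00684 and 0.0105). Of 5 genes of the SMYD family and SMYD1 partners none passed the test in transdifferentiated cells against MEF (edgeR; 0 in either direction at an unadjusted p under 0.05 and with DESeq2). Smyd2, which methylates HSP90, had 41.5 and 35.6 CPM in transdifferentiated cells, 53.6 and 52.6 CPM in muscle, and 41.1 and 38.3 CPM in MEF. Naca, whose muscle form binds SMYD1, had 1082 and 1246 CPM in transdifferentiated cells, 1586 and 1471 CPM in muscle, and 892 and 977 CPM in MEF. It rose in muscle against MEF (0.71, edgeR adjusted p = 0.0371), but counts are per gene, so the muscle form was not measured on its own. Smyd4 was lower in transdifferentiated cells than in muscle (log2 difference -1.55, edgeR adjusted p = 0.0204). Of 4 other small heat shock proteins only Hspb11 was tested, at 38.3 and 21.5 CPM in transdifferentiated cells, 21.2 and 29.6 CPM in muscle, and 16.6 and 36.0 CPM in MEF. The lens alpha-A-crystallin gene Cryaa had counts in transdifferentiated replicate 1 alone, at 0.225 CPM, and Odf1 was at 0 in all libraries.

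Transcripts of the client proteins changed in both directions. All 9 sarcomeric myosin heavy chains, the clients of UNC45B, whose similar sequences could share reads, rose in transdifferentiated cells against MEF (median 9.25), and Myh4 and Myh7 rose by 10.83 ± 0.42 and 9.25 ± 0.36 (edgeR adjusted p = 1.4e-06 for each). Embryonic Myh3 had 4530.3 and 4912 CPM in transdifferentiated cells, 6423 and 7301 CPM in muscle, and 4.74 and 10.4 CPM in MEF. Of 4 non-muscle and smooth muscle heavy chains, 3 fell, Myh11 by 3.71 ± 0.30, Myh10 by 1.61 ± 0.24 and Myh9 by 1.80 (edgeR adjusted p = 3.5e-05, 0.00144 and 0.00250), and Myh14 rose by 3.35 ± 0.62 (0.00421).

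Of 12 cytoskeletal clients of the small heat shock proteins, 8 rose and 2 fell (median 5.17). Desmin (Des), the client best known for CRYAB, had 3585 and 5415 CPM in transdifferentiated cells, 4276 and 4186 CPM in muscle, and 185 and 133 CPM in MEF. Actn2 and Actc1 rose by 9.49 ± 0.37 and 9.33 ± 0.35 (edgeR adjusted p = 1.4e-06 for each), and Flna and Vim fell by 2.74 ± 0.33 and 1.42 ± 0.28 (0.000485 and 0.00546). Titin (Ttn) had 3577 and 3726 CPM in transdifferentiated cells, 5947 and 7301 CPM in muscle, and 3.69 and 5.97 CPM in MEF. The myogenic factor Myod1 had 559 and 1189 CPM in transdifferentiated cells, 724 and 622 CPM in muscle, and 1.43 and 0.534 CPM in MEF. Myog, which drives terminal differentiation, averaged 733 ± 187 CPM in transdifferentiated cells, 1047 ± 77.9 CPM in muscle and 1.41 ± 0.271 CPM in MEF (SD, n = 2 each).

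In muscle against MEF, where 17.3% of all tested genes were higher and 18.3% lower, 2 of the 16 genes of HSP90 and its co-chaperones were higher and 1 was lower, and 7 and 3 of the 27 in the HSP70 list. The counts were 2 and 1 of 11 for chaperone-assisted autophagy, 3 and 3 of 21 for heat-induced genes, 0 and 6 of 16 for endoplasmic reticulum chaperones and 2 and 0 of 5 for the SMYD list. All 9 sarcomeric myosins were higher, 1 of the 4 other myosins was higher and 3 were lower, and of the 12 cytoskeletal clients 9 were higher and 2 lower. None of the 14 TRiC and prefoldin genes passed (edgeR; 1 higher at an unadjusted p under 0.05, 0 with DESeq2). Between transdifferentiated cells and muscle, beyond Smyd4, the calls were Myh2, higher by 1.43 ± 0.32, Myh7, lower at -1.10 ± 0.23 (edgeR adjusted p = 0.0249 and 0.0172), and 1 of the 4 other myosins, Myh11, higher. The remaining 8 lists had no call by edgeR, with 0 to 2 genes each at an unadjusted p under 0.05 and 0 to 2 by DESeq2.

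**Figure D5:**
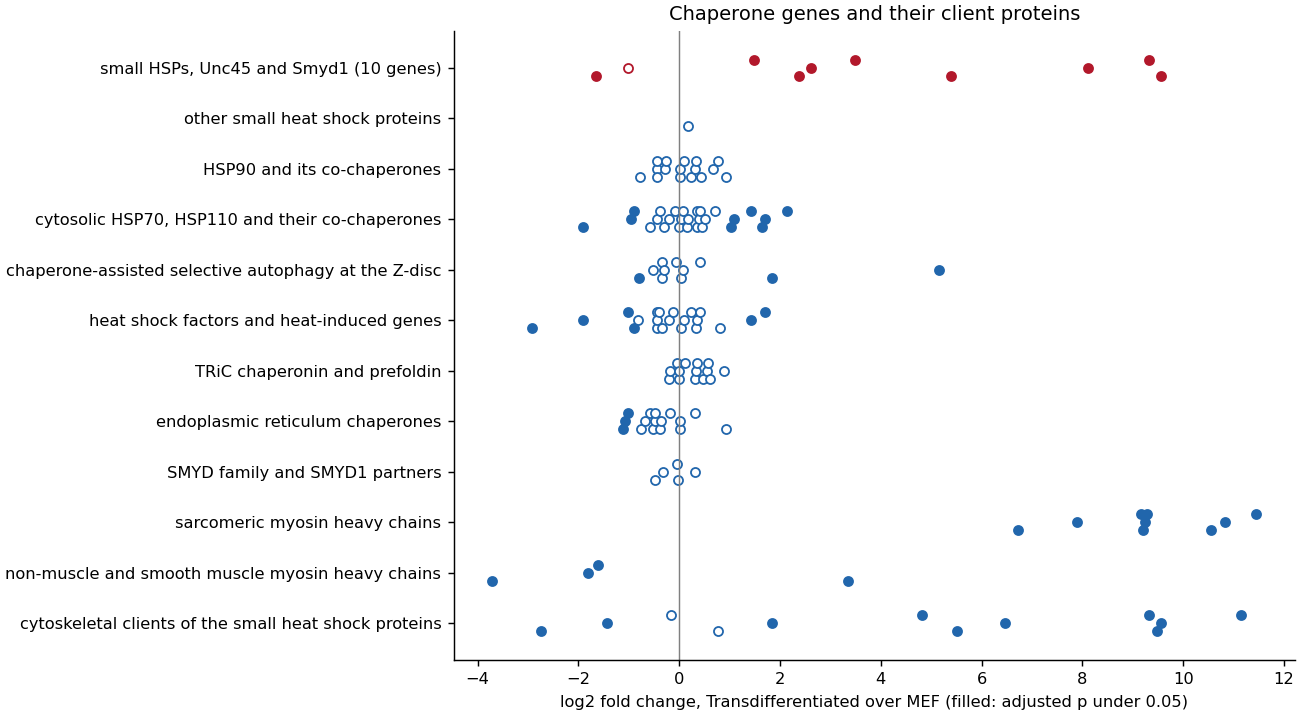
Log2 fold change of each gene in transdifferentiated cells over MEF, for the 10 genes (top, red) and for the other chaperone and client lists; filled points passed an edgeR adjusted p under 0.05. The points of HSP90, TRiC and SMYD genes are all open, while 8 of the 10 genes and all 9 sarcomeric myosins lie to the right.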

How the data were processed

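Per the labels' protocols, RNA was isolated with the Qiagen RNeasy kit, converted to libraries with Lexogen's SENSE kit (mRNA-seq, V2) and sequenced from 1 end (75 bp reads, NextSeq 500). The authors deposited raw counts of reads for each gene symbol, not normalized. The submitters' processing notes name mm10, featureCounts 1.6.2, HISAT2 2.1.0, DESeq2 1.26.0 and Trim Galore 0.6.0 without settings; no source used here gives the annotation or strand setting. A deposited table gives the authors' own log2 fold changes and p-values. Per the file headers, the authors also give a mean signal over libraries, not used here.

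Counts were fitted in R 4.3.3 with edgeR 4.0.16 (TMM scaling, filterByExpr by group, robust quasi-likelihood F test, all 6 libraries, 3 residual degrees of freedom), adjusted by Benjamini-Hochberg over 17400 genes and called at an adjusted p under 0.05. Errors of log2 fold changes are SE, taken as the size of the log2 fold change over the square root of F. The 95% intervals of the 10 genes use 8.77 to 8.96 degrees of freedom, because the fit also borrows the spread of other genes. The biological coefficient of variation was 27.3%. RPKM uses the union of exons in GENCODE M21. The script was tested on simulated data. Alternatives were other scalings, DESeq2 1.42.0, other filters, a replicate block and leaving out each library. Replicates differed by more than counting noise (chi-square per degree of freedom 68.3, 41.1 and 73.9 in transdifferentiated cells, muscle and MEF). Besides the 10 genes, named genes are a set panel, each list's 2 called genes with the smallest adjusted p in each direction in transdifferentiated cells against MEF, and each member's nearest profile; cell type markers are given as sums, and 1 gene that the rule names is not reported here. Smyd4, Myh9, Myh2, Hspb11 and Odf1 were added, the first 3 after their values were seen. The members and lists were chosen with earlier results of these data known.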

Additional observations from a re-analysis of the deposited data

How the results depend on the processing

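Under all 15 alternatives the calls against MEF of Cryab, Hspb2, Hspb3, Hspb7, Hspb8, Unc45b and Smyd1 in both comparisons, and of Unc45a in transdifferentiated cells, kept their side of the threshold. The other calls are less stable. In transdifferentiated cells against MEF, 2 of the 10 genes were lower with DESeq2, with no filter on low counts, with crossed replicate numbers and with a GC offset, and 1 to 2 when a library was left out. In muscle against MEF, 0 were lower with a replicate block, and 0 to 1 when a library was left out. In transdifferentiated cells against muscle, 1 was higher with no filter, with the 4 libraries compared alone, with crossed numbers and with a GC offset (0 to 1 with a library left out), and 1 was lower with DESeq2 size factors in edgeR and with the 4 libraries alone, 2 with DESeq2 and with no filter, 5 with crossed numbers and 4 with a GC offset (0 to 2 with a library left out). Of 990 counts over the other lists, 851 stayed within 1.5 times of the value given. The causes of these changes were not tested.

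Over all genes, transdifferentiated cells against MEF gave 4521 higher and 3828 lower with crossed numbers, 3285 lower with a GC offset, and 1280 to 1926 lower with a library left out. Muscle against MEF gave 4716 higher with crossed numbers, and 1980 to 3223 higher and 1778 to 3445 lower with a library left out. Transdifferentiated cells against muscle gave 2662 higher and 1762 lower with crossed numbers, 2016 higher and 1224 lower with a GC offset, 670 lower with no filter, 265 lower with the replicate block, and 589 to 1616 higher and 140 to 605 lower with a library left out. With the replicate block Hspb1 in transdifferentiated cells and Unc45a in muscle lost their calls against MEF (edgeR adjusted p = 0.0594 and 0.0821). Replicate differences correlated across genes at -0.53 between transdifferentiated cells and MEF, -0.29 between transdifferentiated cells and muscle, and 0.31 between muscle and MEF. The labels give a replicate number only, and whether samples of different groups were paired or shared a batch was not tested. The crossed pairing and the GC offset were chosen after seeing the data.

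Log2 fold changes near 0 changed sign when a library was left out: Hspb1 and Hspb6 in muscle against MEF ranged from -0.19 to 1.19 and -0.75 to 0.32, and Hspb2, Hspb8 and Cryab in transdifferentiated cells against muscle from -0.27 to 0.52, -0.16 to 0.23 and -0.16 to 0.048. Cryab was 0.031 with library totals. The ratio of Unc45b to Unc45a was 4.41 from raw counts in transdifferentiated cells, and with the longest transcript 3.86 there and 3.71 in muscle. The ratio of Hspb2 to Cryab from raw counts was 0.209 in transdifferentiated cells, 0.182 in muscle and 0.0249 in MEF, and 0.262 in muscle with the longest transcript. Depth limits Unc45b and Hspb3 in MEF, which rest on 3 and 10 counts.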
